A study of Mus musculus with 2 samples.

Results

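5-Hydroxymethylcytosine (5hmC) is made from 5-methylcytosine by the TET dioxygenases and is both an intermediate of DNA demethylation and a lasting mark. In embryonic stem cells it is known from gene bodies and enhancers, and in mammalian DNA it sits almost wholly at CpG dinucleotides. Introns make up most of a gene's length and carry enhancers, mobile elements and tandem repeats, among them long runs of alternating CA, which read as TG on the opposite strand.

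The windows described here are the entries in the authors' list of 5hmC-enriched windows whose annotation begins with the word intron, 241 of 668. The others lay between genes (415) or at promoters, exons or transcript ends (12). The list came from R1 mouse embryonic stem cells, an established line kept at passages below 25 in 2i conditions. The cells were taken on day 3 of undirected differentiation as embryoid bodies in knockout serum medium under atmospheric oxygen. DNA from 3 samples was pooled; a polyclonal antibody against 5hmC enriched 1 library, and total genomic DNA without an antibody gave the input library. Each group was therefore a single pooled library, so no value has a replicate error and no test between the libraries was made. Intervals are 95% intervals that cover counting error only. As DNA was measured, no marker of the labelled cell state could be checked. Every window spans 51 bp and carries a peak score, a value of the authors whose scale is not named; it ranks windows within the list and is not a fold. Read depth behind a window is unknown.

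The host gene was taken from the RefSeq transcript that the annotation names, and 237 windows lay in 225 named host genes. Of these, 230 windows matched a gene of the GRCm38.p6 table on the same chromosome, and all 230 fell within that gene's bounds. A further 7 were named through transcript and gene pairs in the authors' list itself. For 1 window, in intron 2 of 2 of a transcript that the table does not hold, the host remains unnamed. The remaining 3 windows go against their label. Mir466n, a microRNA gene of 94 bp on chromosome 2, was named as host of windows in introns 2 and 4 of 4 on chromosome 11. Mir3471-1, of 131 bp on chromosome 4, was named for a window in intron 3 of 4 on chromosome 5. Those 3 windows scored 4.04, 4.95 and 5.03 and lay in TG repeat or IMPB_01 sequence; they stay in the counts of 241 and have no host gene.

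Stretches of the windows are printed to show what the repeat annotation stands for. Letters were read from the authors' motif matches, which give the matched bases and their offset from the window centre; 219 of the 241 windows had such letters, on the plus strand of GRCm38. Since most matches were to motifs of alternating AC or GT, the stretches that can be printed are rich in that alternation by this choice, and they are no sample of all windows. For windows in CA or TG repeats, these are 3 of the longest stretches and the longest alternation recovered, with the longest uninterrupted alternation in capitals.
Polb, chr8:22632974-22633024: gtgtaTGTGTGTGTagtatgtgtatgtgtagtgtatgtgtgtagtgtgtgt
Msrb3, chr10:120803343-120803392: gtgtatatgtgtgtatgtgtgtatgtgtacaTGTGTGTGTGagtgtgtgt
Hspa12a, chr19:58832618-58832668: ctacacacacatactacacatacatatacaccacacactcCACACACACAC
Otulin, chr15:27613476-27613509: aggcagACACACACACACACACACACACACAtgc

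The alternation is broken every few bases in the Polb, Msrb3 and Hspa12a windows. Polb, which encodes the DNA polymerase of base excision repair, had a longest run of 9 bases and a score of 7.92. Otulin, which encodes a deubiquitinase for linear ubiquitin chains, held the longest uninterrupted run in the recovered letters of any intron window, 25 bases, at a score of 5.22. Bases that were not recovered could make a run longer in this or another window. Over the 115 windows in CA or TG repeats, the longest recovered run had a median of 10 bases and a range of 5 to 25. It reached 10 bases in 63 of them and 16 bases in 11.

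Windows annotated as IMPB_01, a satellite in the authors' annotation, and as ERVK elements, long terminal repeats of endogenous retroviruses, are shown in the same way, by the longest stretches recovered. The stretch of Dnajc12 is IMPB_01, and those of Dlec1 and Negr1 are the ERVK elements RLTR17B_Mm and RMER12C.
Dnajc12, chr10:63405715-63405765: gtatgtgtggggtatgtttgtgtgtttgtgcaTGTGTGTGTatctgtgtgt
Dlec1, chr9:119117369-119117418: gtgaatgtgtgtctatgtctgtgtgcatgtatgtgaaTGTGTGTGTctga
Negr1, chr3:156583705-156583752: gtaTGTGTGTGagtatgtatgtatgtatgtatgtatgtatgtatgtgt

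These were chosen as the longest stretches, which come mostly from matches to the alternating motifs, so their TG steps are a description of these stretches alone. The next sequences are from windows without an annotated repeat.
Cacna2d1, chr5:16300718-16300767: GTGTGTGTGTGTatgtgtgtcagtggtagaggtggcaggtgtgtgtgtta
Rere, chr4:150514387-150514404: gcaTGTGTGTGTGTGTGT
The first of these is in intron 11 of Cacna2d1, which encodes an auxiliary subunit of voltage-gated calcium channels, and the Rere stretch belongs to a window with the score 14.9.

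A whole window could be read for a CA repeat in intron 1 of 2 of the noncoding RNA gene 2610035D17Rik.
2610035D17Rik, from RefSeq (GRCm38.p6), chr11:113134380-113134430: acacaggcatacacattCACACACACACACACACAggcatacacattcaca
It was the single intron window overlapping a RefSeq promoter entry, that of Gm39467, and its alternation of 18 bases stands between copies of the same flanking words.

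A motif of alternating AC or GT was present in 206 of the 241 windows (85.5%, exact interval 80.4 to 89.7), counting a match in the authors' list to any of the motifs ACACACACAC, ACACACACACAC and GTGTGTGT on either strand. Matches to these motifs overlap one another, and the list accepts matches with other letters at some positions. Between genes the share was 78.3% (325 of 415), a difference of 7.16 percentage points (95% interval 0.943 to 12.9, Newcombe's method). All 115 CA or TG repeat windows had a match, as did 39 of 40 IMPB_01 windows, 11 of 13 ERVK windows and 27 of 31 windows outside repeats. In the 28 windows of other simple repeats, 7 had one. GTCTGTCT matched 28 windows, 9 of them IMPB_01 and 8 outside repeats.

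CA or TG repeats held 115 of the 241 intron windows (47.7%, exact interval 41.3 to 54.2), 65 named TG and 50 named CA on the plus strand. IMPB_01 held 40 (16.6%, 12.1 to 21.9), other simple repeats 28 (11.6%), ERVK elements 13 (5.39%), low-complexity sequence 8 (3.32%), and 31 windows (12.9%) had no annotated repeat. Between genes, 43.4% of windows were CA or TG repeats and 12.5% IMPB_01. The differences, 4.34 points (interval -3.52 to 12.2) and 4.07 points (-1.39 to 10.0), spanned 0. Telomere-type repeats were rarer in introns, 1 window of 241 against 13 of 415, a difference of -2.72 points (-4.90 to -0.421). Among 19 shares compared in this way, that one and the alternating motif were the pair whose interval did not span 0, and the intervals were not adjusted for their number.

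**Figure D1:**
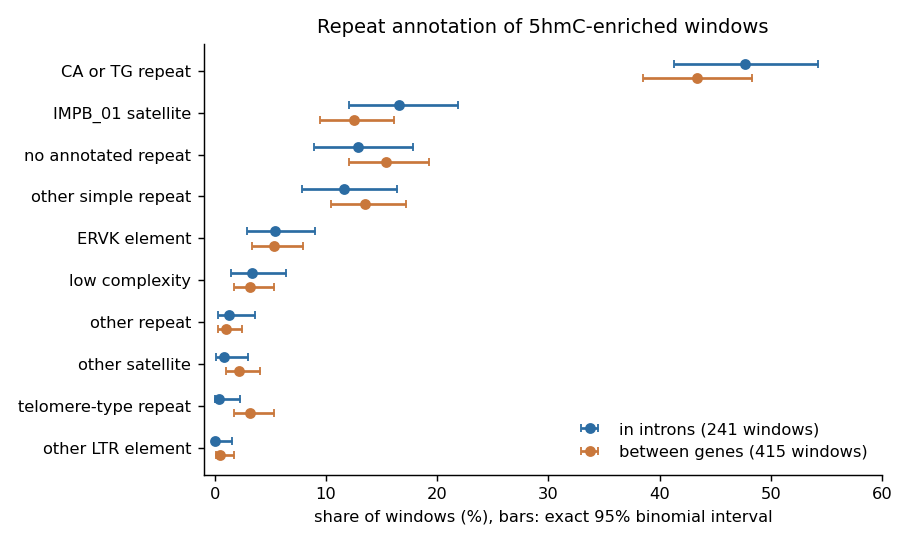
Share of windows in each repeat class for the 241 windows in introns and the 415 between genes; points are shares and bars exact 95% binomial intervals. CA or TG repeats lead in both, at 47.7% and 43.4%, and the telomere-type repeats are at 0.415% in introns and 3.13% between genes.

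The repeats had no strong orientation to their host. The host's strand was known for 99 of the CA or TG repeat windows, and the strand carrying the gene's own sequence read TG in 54 and CA in 45 (54.5% TG, exact interval 44.2 to 64.6). The interval holds an even split.

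Few intron windows contained a CpG. At least 1 was present in 43 of 241 windows (17.8%, exact interval 13.2 to 23.3), against 60 of 415 between genes (14.5%), a difference of 3.38 points (-2.31 to 9.53). Of the 43 windows, 35 held 1 CpG, 5 held 2, 2 held 4 and 1 held 5. By repeat, the share was 38.7% outside repeats (12 of 31), 22.5% in IMPB_01 (9 of 40), 23.1% in ERVK elements (3 of 13) and 11.3% in CA or TG repeats (13 of 115). Between genes the shares were 20.3% outside repeats and 9.62% in IMPB_01; the differences of 18.4 points (-0.425 to 37.6) and 12.9 points (-2.10 to 28.8) spanned 0. The CpG count describes the reference sequence and not its modification. The DNA fragments were 200 to 1000 bp long, so CpG sites of an enriched fragment outside its 51 bp window are not counted.

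These stretches show CpG sites that the recovered letters reached, with CG in capitals.
R3hdm2, chr10:127493360-127493405: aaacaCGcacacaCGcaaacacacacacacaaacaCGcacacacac
Fnbp1, chr2:31078820-31078869: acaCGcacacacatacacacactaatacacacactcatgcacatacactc
Plekhh2, chr17:84613645-84613692: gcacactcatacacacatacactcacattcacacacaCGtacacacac
Runx2, chr17:44728273-44728320: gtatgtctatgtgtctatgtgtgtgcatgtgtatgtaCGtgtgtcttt
Ankrd27, chr7:35635960-35635977: atttgtgtgtgCGtgtgt
Zmynd8, chr2:165802267-165802316: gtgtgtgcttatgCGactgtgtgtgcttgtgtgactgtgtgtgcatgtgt

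The recovered letters held 29 CpG in 24 windows, all beside motif matches by the way the letters were read. Of these, 10 were flanked by the alternation on both sides, 5 as TGCGTG and 5 as CACGCA, and 19 had other neighbours, such as TACGTG in the Runx2 window or TGCGAC in that of Zmynd8. Runx2 encodes the transcription factor of bone formation, and Zmynd8 a chromatin reader protein. The R3hdm2 window, in intron 20 of 23, held 4 CpG at a score of 7.92. The highest number, 5, was in a TG repeat in intron 2 of 16 of Eif2ak3, which encodes PERK, a kinase of the unfolded protein response (score 6.35). Mbd2, which encodes a protein that binds methylated CpG, had an IMPB_01 window with 4 CpG in intron 3 of 6 (6.35). Windows with 2 CpG were in Mdga2, Tiam2, Gdpd5, Slc2a2 and Pbld1. Slc2a2 encodes the glucose transporter GLUT2 and Tiam2 an activator of Rac.

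The 12 windows outside repeats that held a CpG had 1 each and scored 3.65 to 14.9. Their highest scores were in Rere (14.9), Ankrd27 (11.4) and Tspoap1 (7.92, intron 31 of 31). Rere encodes a nuclear receptor corepressor, Ankrd27 an endosomal trafficking protein and Tspoap1 a presynaptic scaffold protein. Eif3h, encoding a subunit of a translation initiation factor, scored 6.35, Fnbp1 5.64, Slc24a2 5.57, and Nol9, Slc37a1 and Elapor1 4.95 each. Plekhh2 (4.04), Slc39a11 and Amotl1 (3.65 each) were lowest. Only the Eif3h and Nol9 windows lacked a match to the alternating motifs.

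Scores of the intron windows took 34 values from 2.00 to 21.4, and the 8 most frequent covered 197 windows (81.7%). The median was 4.95 with quartiles of 4.04 and 6.35, the same median and quartiles as between genes. Medians by repeat were close: 4.95 in CA or TG repeats and outside repeats, 4.99 in IMPB_01, 5.09 in other simple repeats and 5.22 in ERVK elements. A score of 10 or more was reached by 8 of 241 intron windows (3.32%, exact interval 1.44 to 6.44), beside 3.14% of the whole list. None of the 115 CA or TG repeat windows reached it; their highest was 9.60. Between genes, 2 of 180 such windows did, with a highest score of 16.7. The class follows the name of the repeat and not the letters. Windows without an annotated repeat in Rere (14.9) and Ankrd27 (11.4) held alternations of 15 and 11 bases. In the other intron windows that reached a score of 10, the recovered alternation was at most 9 bases or no letters were recovered. The lowest score, 2.00, was that of a window in intron 1 of 17 of Ank3, which encodes ankyrin-G of the axon initial segment, in an HAL1b element.

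**Figure D2:**
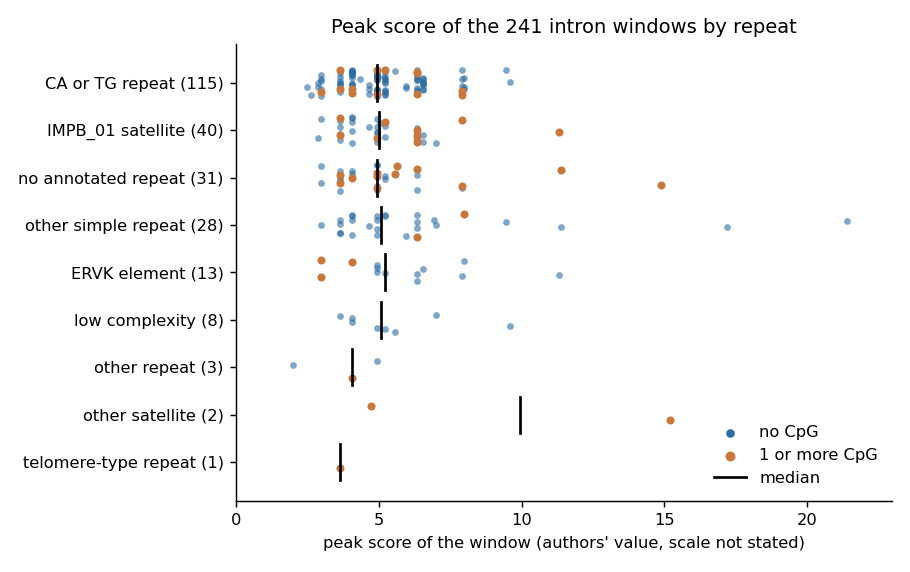
Peak score of each of the 241 intron windows by repeat class (number of windows in brackets); points are windows, coloured by whether they hold a CpG, and black lines are medians. The medians of the larger classes lie between 4.95 and 5.22, and the scores above 10 fall outside the class annotated as CA or TG repeats.

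The 2 highest scores of the intron windows were in 2700054A10Rik, a noncoding RNA gene on chromosome 17. Intron 1 of 4 held 4 windows within 2.29 kb (chr17:13550742-13553030), at 3.33, 2.19, 1.84 and 1.09 kb from the start, with scores of 21.4, 17.2, 7.0 and 9.44 in that order. All 4 were CTGTG repeats without a CpG. No letters of this cluster were recovered, since none of the authors' motifs matched there.

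Other high scores were spread over repeat classes and host functions. Mdga2, a neuronal adhesion gene, scored 15.2 in the major satellite GSAT_MM in intron 1 of 15, 163.1 kb from its start. The other intron window in this satellite was in intron 7 of 13 of Mamdc2 (4.71). Lvrn, encoding an aminopeptidase, scored 11.4 in a GTGTG repeat in intron 6 of 19. Nrap, a gene of striated muscle, scored 11.3 in an RLTR17B_Mm element in intron 11 of 41. The next ERVK windows by score were those of A530053G22Rik (7.99, RMER17D2) and Slc2a10 (7.92, RMER17C). The other RLTR17B_Mm windows were in Dlec1 (5.22), 4930519G04Rik (4.95) and the complement gene C2 (2.96). Erdr1 on chromosome Y had IMPB_01 windows with 1 CpG each that scored 11.3 and 5.21; in the gene table Erdr1 lies on X, so the chromosome of these windows is that of the authors' list. Cubn, encoding the receptor cubilin, scored 9.60 in intron 52 of 66, Plxdc2 also 9.60, and Msrb3, a methionine sulfoxide reductase gene, 9.44. The single telomere-type window was in intron 9 of 9 of Map3k21 (3.65).

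Most host genes, 217 of 225, held 1 window. The other 8 held 20 windows, and apart from 2700054A10Rik and Erdr1 these were spread over more than 10 kb each. Ksr2, a scaffold gene of the RAF and MAP kinase cascade, held 3 over 228.5 kb in introns 1, 4 and 7 of 19, with scores of 2.96, 7.92 and 4.95 in an RLTR20A4 element, a CA repeat and a TCCA repeat. Kcnj6, a potassium channel gene, had TG repeat windows in introns 2 and 3 of 3 (4.04 and 6.35). Fnbp1 had windows in introns 6 and 13 of 14 (5.64 and 7.99), the polarity gene Pard3 in introns 1 and 22 of 24 (4.66 and 2.86), and the ubiquitin ligase gene Marchf1 in introns 5 and 7 of 8 (4.95 and 3.65).

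Intron 1 of the named transcript held 73 windows (30.3%, exact interval 24.6 to 36.5), intron 2 held 35 (14.5%) and the last intron 23 (9.54%). The mean over windows of 1 divided by the number of introns was 13.5%, a description only, since introns differ in length and that of intron 1 is commonly large. In the 135 windows whose transcript has 10 or more introns, the share in intron 1 was 27.4% (20.1 to 35.7) and that mean 5.91%. By length the windows were spread along the gene: for 206 windows with a known host strand the median place was 46.3% of the way from start to end (interval 39.0 to 53.5). Cut into 5 equal parts from start to end, the genes held 42, 50, 35, 41 and 38 windows.

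**Figure D3:**
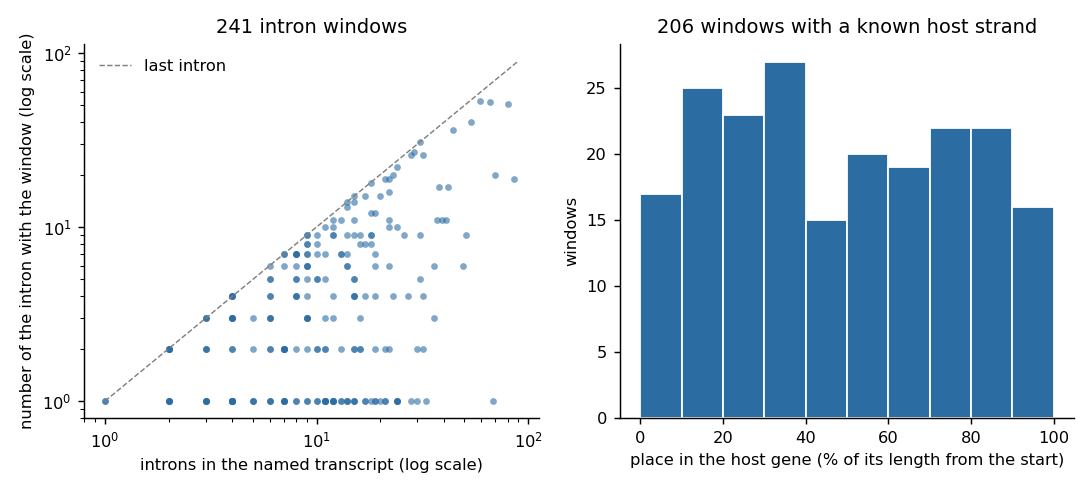
Left, number of the intron that holds the window against the number of introns in its transcript for 241 windows, on log axes, with the dashed line at the last intron. Right, place of 206 windows along the host gene in percent of its length. The row of 73 windows in intron 1 runs along the bottom of the left panel. At right the windows are spread over the length, with a median place of 46.3%.

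Of the hosts with most introns, the first were Hydin (intron 19 of 86, score 5.22) and Dnah17 (51 of 80, 4.95), both genes of motile cilia. Cdh23 (1 of 68, 4.95), a gene of the sensory hair cell, and Cubn were also among the 5 with most. The window in Hydin was IMPB_01 with an alternation of 22 bases, the longest recovered in that class.

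Windows in introns lay a median of 25.2 kb from the nearest start (quartiles 9.64 and 55.9, range 0.857 to 591.2 kb), and those between genes 48.4 kb. Intron windows lie inside a gene by definition, so these medians depend on the annotation and their difference was not tested. Within 5 kb lay 31 intron windows (12.9%), within 1 kb 2, and beyond 100 kb 31. The closest were in intron 1 of Pbld1 (857 bp, a B3A element with 2 CpG, score 4.04) and of Gm4262 (880 bp, TG repeat, 7.92). Among the farthest were those in Nlgn1 (591.2 kb), Inpp4b (414.8 kb), Edil3 (331.6 kb) and Car10 (319.4 kb). The nearest start was that of the host gene for 179 windows (74.3%, exact interval 68.3 to 79.7) and that of another gene for 62. In intron 1 the host was nearest for 66 of 73 windows, and in later introns for 113 of 168 (67.3%). The Rere window was nearest to Slc45a1, that of Ankrd27 to Pdcd5, that of Sdk1 to Foxk1 and that of Cacna2d1 to Hgf, so naming windows by the nearest start would give other genes in these cases.

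Host genes were long. The 221 hosts with a matched gene had a median length of 100.8 kb (quartiles 37.4 and 227.1), and all 26220 genes with a curated transcript 14.3 kb. Counted by window, the median host length was 103.4 kb (230 windows). A base drawn from all gene bodies lies in a gene with a median length of 130.9 kb. A comparison by base thus puts the hosts below and not above that value. Windows per Mb of gene were 0.266 (exact Poisson interval 0.195 to 0.353) in genes of 20 to 50 kb, 0.252 (0.189 to 0.331) in those of 100 to 200 kb, and 0.139 (0.0965 to 0.193) in genes over 400 kb. Over all genes the density was 0.207 (0.181 to 0.235). Among the longest hosts were Cdh13 (1185 kb), Sdk1 (974.1 kb) and Nlgn1 (911.1 kb). Genes over 400 kb took 22.7% of the summed gene length and 15.2% of the windows. Of the windows there, 16 of 35 (45.7%, exact interval 28.8 to 63.4) scored at or above the median of the list. In shorter hosts, 132 of 195 (67.7%, 60.6 to 74.2) did. The difference was not tested, and whether the separate intervals overlap does not decide it. With windows at or above that median alone, the density was 0.0633 per Mb in genes over 400 kb and 0.153 in shorter genes, from 0.139 and 0.226.

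**Figure D4:**
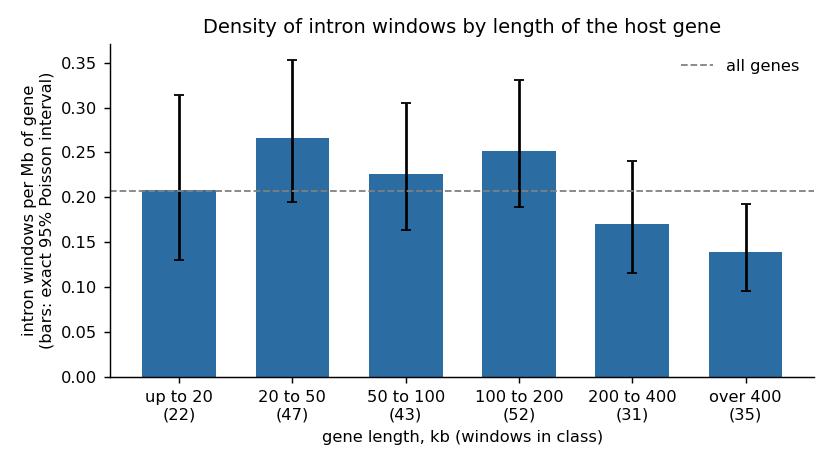
Intron windows per Mb of gene by length of the host gene, with exact 95% Poisson intervals; the dashed line is the density over all genes and numbers in brackets are windows. Genes over 400 kb have 0.139 windows per Mb, and the line is at 0.207.

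Gene lists with a role in these cells, their differentiation or in neurons were counted by host. Of 545 listed genes in 17 lists, 19 hosted a window, 19 windows in all, where the mean density over their summed length would give 27.1. Of all 26220 genes with a curated transcript, whose median length was 14.3 kb, 221 (0.843%) hosted a window. Genes of synapse and neuronal adhesion had 6 hosts of 64, with 6 windows where the mean density over their summed length would give 11.7. These were Nlgn1 (6.35), a postsynaptic adhesion gene, Mdga2 (15.2), Sdk1 (7.99), Dscaml1 (6.54), Negr1 (4.95) and Cdh13 (2.96). The median length in this list was 906.8 kb, and genes over 400 kb held 0.139 windows per Mb, against 0.207 over all genes. For lists of such long genes, the mean density thus gives a higher number than the density of their own length class would. These lists also enter the 27.1, and no number by length class was computed. Ion channels and receptors had 4 hosts of 50 (4.79 windows by length), among them the potassium channel gene Kcnma1 (6.35), Cacna2d1 (5.22) and the GABA receptor gene Gabrg3 (3.65). Large genes of fragile sites had 2 hosts of 19 (5.31 by length).

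The remaining lists, among them regulators of the early embryo, had 0 or 1 host each. None of 29 pluripotency genes, 25 mesoderm and heart genes, 27 neuroectoderm genes, 44 Wnt genes, 39 TGF-beta and BMP genes or 22 RNA-binding genes hosted a window. By length, 0.154 to 1.42 windows would fall in each of these lists, so a count of 0 carries little information. Endoderm genes had Prox1 (6.35, RMER12C element, intron 4 of 4) of 24, a regulator of lymphatic and liver development. FGF and MAP kinase genes had Fgf12 (5.22) of 29, germ cell genes the piRNA pathway gene Mael (5.22, CA repeat, intron 10 of 11) of 20, and imprinted genes Gnasas1 (4.04, CA repeat with 1 CpG), the antisense RNA gene at the Gnas locus, of 41. Mbd2 was the single host of 32 genes of DNA methylation and demethylation, Rere of 50 Polycomb and chromatin genes, Nrap of 22 muscle genes and Eif3h of 20 housekeeping genes. By length, 0.0841 to 1.38 windows would fall in each list with 1 host, so a count of 1 carries little information too.

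Some further hosts are given by function, a grouping made after their names were seen. Transcription factor hosts included Runx2 (3.65), the B cell factor Pax5 (4.04, RLTR20A4 element with 1 CpG, intron 6 of 9), Lmx1b (6.35), Tfec (5.22), Dmrt1 (2.96) and Arnt (4.95), the partner of the hypoxia-inducible factors. Solute carriers included Slc2a10 (7.92, RMER17C element), the organic cation transporter gene Slc22a2 (6.35), Slc16a10 (6.35), Slc2a2 (4.95) and Slc15a5 (2.96). Both Adra1a and Adra1b, genes of adrenergic receptors, held a window at a score of 6.54 in their last intron, a CA repeat in intron 2 of 2 and a TG repeat in intron 3 of 3. Signalling hosts included Prkcb (6.92) and Prkca (4.04), genes of protein kinase C, and Gnao1 (7.99), encoding a G protein subunit of neurons. Apela, which encodes a peptide hormone of the early embryo, had a CA repeat with an alternation of 19 bases in intron 3 of 3 (4.95). Nqo1, a gene of the response to oxidative stress, had an IMPB_01 window in intron 1 of 5 (6.35).

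By chromosome, autosomes held 239 intron windows, 0.231 per Mb of gene bodies. Among autosomes the density was highest on chromosomes 17 (21 windows, 0.519 per Mb), 5 (29, 0.419) and 8 (21, 0.390) and lowest on chromosome 1 (8, 0.0986). Of the 21 on chromosome 17, 4 were the cluster within 2.29 kb in 2700054A10Rik. Each of them counts as a separate window in the density and in the share below. Intron windows were 21 of the 38 windows on chromosome 17 (55.3%, exact interval 38.3 to 71.4), 8 of 43 on chromosome 1 (18.6%, 8.39 to 33.4) and 5 of 35 on chromosome 12 (14.3%, 4.81 to 30.3). Chromosome X had 0 intron windows in 47.1 Mb of gene bodies, where the autosomal density gives 10.9; a count of 0 allows up to 3 windows and so a ratio of up to 0.276. The 10.9 makes no allowance for X being present in fewer copies than an autosome, and copy number was not examined. Few windows of any kind lay on X, 2 of 668, so the low count is one of the whole list. It also rests on the authors' placing of the Erdr1 windows on Y, where they were the 2 intron windows. By the gene table both would count for X, so no density is given for Y.

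**Figure D5:**
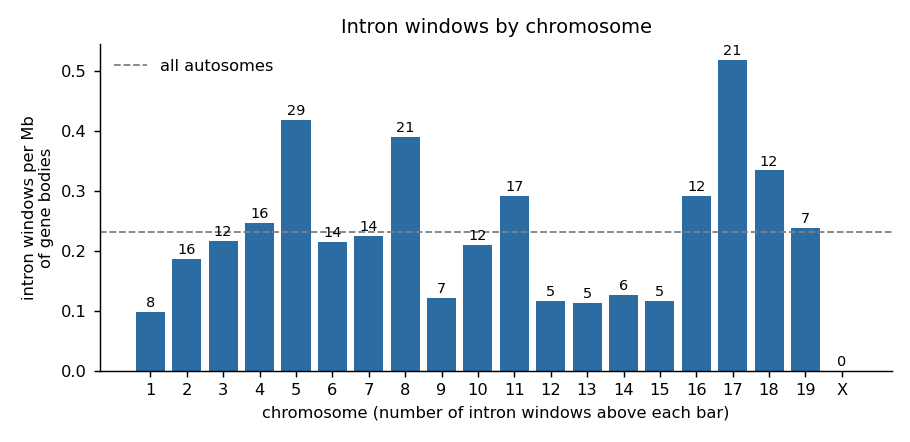
Intron windows per Mb of gene bodies on each autosome and X, with the number of windows above each bar; the dashed line is the density over all autosomes, 0.231. Chromosome 17 stands at 0.519 and X at 0.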

How the data were processed

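DNA enriched for 5hmC and input DNA were compared by the authors, who deposited a list of enriched windows. Per the submitters' processing notes, Bowtie and MACS 1.0.1 were used, without stated roles, and mm9 is named; the settings were not given in the sources used here, nor was the annotation tool. The deposited peak score has no stated scale. The deposited CpG and GC columns hold a fraction of the 51 bp window. Coordinates were read as GRCm38: letters of the motif matches equalled the RefSeq GRCm38.p6 promoter table at 67 of 67 positions in 3 windows, and 112854 letters read from overlapping matches never conflicted. Motif matches whose letters overlap were merged into stretches, and alternations were measured in the recovered letters, so they are lower bounds. Host strand came from the promoter table (177 windows) or from the deposited distance (tolerance 1000 bp); both gave the same strand for 93 of 93. A density divides windows by the summed length of genes with a curated transcript, or by the merged length on a chromosome.

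Shares have exact Clopper-Pearson intervals, differences Newcombe intervals and medians order-statistic intervals (Python 3.11.15, scipy 1.17.1, pandas 2.3.3). With 1 library per group there was no test. Sharing of a list or locus makes windows dependent, which no interval covers. Interval and assembly functions were tested on simulated data. Members and lists were chosen with earlier results of these data known. Named were hosts of the 12 highest scores, of 2 or more windows, of windows outside repeats with a CpG, of the 6 windows with most CpG (ties included), of listed genes, the 5 longest and 5 most intron-rich hosts, the 5 farthest windows, and the 3 highest ERVK, telomere-type and satellite windows; other names were chosen after their values were seen. Some genes and sequences that these rules name are not reported here.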

Additional observations from a re-analysis of the deposited data

How the results depend on the processing

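The alternatives were 1 window per host gene, windows within the bounds of the host gene, windows at or above the median score of 4.95, nearest genes in place of hosts, and all windows outside introns as the comparison. Leaving out the 3 windows named after a microRNA gene on another chromosome, and the alternatives for the telomere-type share, the alternating motif, the scores of 10 or more and the genes over 400 kb, were chosen after seeing the data. Of 65 alternative values over 19 results, 62 stayed within the counting interval of the reported share, median or density, within 1.5 times a reported count, or, for differences between shares, kept an interval that spanned 0 or did not, as reported. The other 3 came from windows at or above the median score, 156 of 241. By construction, the median score became 6.35 and the number of host genes 146, from 225. The density in genes over 400 kb became 0.0633 per Mb, from 0.139, beside 0.133 from 0.207 over all genes. Fewer windows were kept by construction, but the part kept was 45.7% in genes over 400 kb and 64.3% over all genes. This difference was not tested. With nearest genes in place of hosts, 15 listed genes were counted instead of 19. No paired analysis was possible because each group is 1 library. Pooling leaves the spread between cultures unknown, and unknown read depth leaves the precision of each score unknown. The share of each repeat in all introns was not computed, so the shares show no enrichment over introns.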
